A study of Mus musculus with 2 samples.

Results

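The genes described here handle arginine and creatine in macrophages that lacked PAC1, compared with macrophages of wild-type littermates. PAC1, the protein of Dusp2, is a dual-specificity phosphatase of MAP kinases. The 10 genes were selected by name, as the arginases Arg1 and Arg2, the nitric oxide synthase Nos2, the arginine transporter Slc7a2, the citrulline-recycling enzyme Ass1, the ornithine aminotransferase Oat, the creatine synthesis enzymes Gatm and Gamt, the creatine kinase Ckb and the creatine transporter Slc6a8. They are 10 of the 8220 genes that the array's probe sets name singly. Arg1 and Gatm were picked because their signals were higher in the knockout, so their ratios are given as a description and support nothing by themselves. The other genes were also chosen with earlier results of these data known, so their ratios are a description too.

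The knockout sample came from Pac1-/- mice and the wild-type sample from age-matched Pac1+/+ littermates, with 1 Affymetrix array each. In both, macrophages were drawn into the peritoneum by an injection of 2 ml of 3% thioglycollate 4 days before collection, were purified by 2 hours of adherence, and then received 100 ng/ml of lipopolysaccharide (LPS), a bacterial cell-wall component that triggers Toll-like receptor 4, for 6 hours. The mouse strain, the age in weeks and the number of mice behind each array are not stated in the labels. With 1 array per genotype there was no replicate, so every difference below is the difference between 2 arrays, with no error of its own and no p-value. The deleted gene was checked first: Dusp2, from 1 probe set, was at 76.8 in knockout cells and 333 in wild-type cells (log2 ratio -2.12), and the labels do not say whether its probes fall within the deletion. Unstimulated cells were not analysed here, so the values are levels after LPS and not inductions.

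Arginine stands at a branch point in macrophages. Arginase splits it into urea and ornithine, which feeds the synthesis of polyamines and, through ornithine aminotransferase, of proline, while inducible nitric oxide synthase turns it into nitric oxide and citrulline, from which argininosuccinate synthase and lyase rebuild arginine. In the creatine branch, Gatm moves the amidino group of arginine to glycine, which yields guanidinoacetate and ornithine, and Gamt methylates guanidinoacetate to creatine. Creatine also enters cells through the carrier Slc6a8, and creatine kinases such as Ckb exchange its phosphate with ATP.

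Sequence is shown for Gatm and Ckb, because they had the highest ratio of the 10 genes and the highest ratio among the 8 other than Arg1 and Gatm. RefSeq promoter windows (build GRCm38.p6, 250 bases before to 50 bases after the transcription start) were matched for 5 of the 10 genes, namely Gatm, Gamt, Ckb, Oat and Ass1. The Gatm window lies at chr2:122611228-122611527 and the Ckb window at chr12:111672289-111672588, both on the minus strand, and both are printed in the direction of transcription. Capitals mark the motif letters found, CCAAT on either strand (ATTGG where it lies on the opposite one) and the TATA box.
Gatm: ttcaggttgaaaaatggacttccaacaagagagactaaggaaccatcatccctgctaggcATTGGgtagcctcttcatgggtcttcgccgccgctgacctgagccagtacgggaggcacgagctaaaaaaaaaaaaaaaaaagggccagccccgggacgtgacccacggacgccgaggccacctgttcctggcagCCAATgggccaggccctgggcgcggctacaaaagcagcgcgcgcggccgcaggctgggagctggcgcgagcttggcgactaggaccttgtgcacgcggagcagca
Ckb: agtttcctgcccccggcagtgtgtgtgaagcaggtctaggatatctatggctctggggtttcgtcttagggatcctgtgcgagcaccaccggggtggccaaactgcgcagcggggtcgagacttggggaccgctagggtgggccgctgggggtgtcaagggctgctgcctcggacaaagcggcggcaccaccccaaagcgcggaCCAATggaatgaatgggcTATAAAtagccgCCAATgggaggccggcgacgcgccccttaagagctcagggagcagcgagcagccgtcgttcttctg
The search covered 8 motifs on both strands, AP-1 (TGANTCA), STAT sites with gaps of 3 or 4 bases, C/EBP (TTNNGCAA), the TATA box (TATAAA), NF-kB, ETS or PU.1 (GAGGAA) and the cyclic AMP element (TGACGT), and CCAAT was added after the sequences were seen. Ckb held TATAAA from -28 to -23 relative to the start, a motif in 13.6% of all 32851 RefSeq promoter windows. CCAAT occurred in the windows of Gatm (-55 to -51, and on the opposite strand at -190 to -186), Ckb (-46 to -42 and -16 to -12) and Oat, and in 37.4% of all windows. The other 7 motifs had no match in the 5 windows, which says only that these letters are not there. Both printed windows held 22 CpG dinucleotides, with 60.7% G or C in Gatm and 63.0% in Ckb.

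The 10 genes were represented by 12 probe sets. Of these, 10 were above the floor on both arrays, and the second probe sets of Arg2 and Slc6a8 were below it on both. The floor was the median of all signals, 36.4 in the arbitrary units of the MAS5 signal. Signals of different probe sets depend on their probes, so levels are compared only between the arrays and never between genes.

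Arg1, the cytosolic arginase and a marker of alternative macrophage activation in mice, had a signal of 776 in knockout cells and 336 in wild-type cells. Both values were well above the floor (21.3 times it in knockout and 9.22 times in wild-type cells), and the knockout signal was 2.31-fold higher, a log2 ratio of 1.21. It ranked 27th from the top among the 5119 eligible genes, those with at least 1 signal above the floor. Of the genes above it, Gatm alone had a mean signal of at least 4 times the floor. Among the 1074 genes with a mean signal within 2-fold of Arg1's, 3 were as far apart in either direction, namely Gatm, Il6 and Procr. Procr, a receptor for protein C, was named after its value was seen. Chil3, another marker of alternative activation, differed in the opposite direction to Arg1. It had 112 in knockout cells and 320 in wild-type cells (log2 ratio -1.51), and was also named after its value was seen. Nothing about alternative activation is read from Arg1.

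Arg2, the mitochondrial arginase, had 48.2 in knockout cells and 46.6 in wild-type cells from the probe set that was measured. The 2 signals were almost equal, with a log2 ratio of 0.05, but they stood just above the floor (1.32 times it in knockout and 1.28 times in wild-type cells), so a lower level could hardly have been measured. Its second probe set gave 1.20 in knockout and 5.50 in wild-type cells, both below the floor, and no ratio was taken from it. The log2 ratio of Arg1 exceeded that of Arg2 by 1.16.

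Nos2, the inducible nitric oxide synthase that uses the same substrate as arginase, had 172 in knockout cells and 154 in wild-type cells. The knockout signal was 1.12-fold higher (log2 ratio 0.16), and 60.4% of the 1910 genes of like brightness were at least as far apart. The Arg1 log2 ratio was higher than that of Nos2 by 1.05, so the Arg1 signal relative to the Nos2 signal was 2.07-fold higher on the knockout array. This difference between 2 log2 ratios does not depend on a scaling factor between the arrays, and it ran from 1.05 to 1.09 over the 9 alternative settings. Of these settings, only quantile normalization, loess and the addition of 1 unit could change it.

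**Figure D1:**
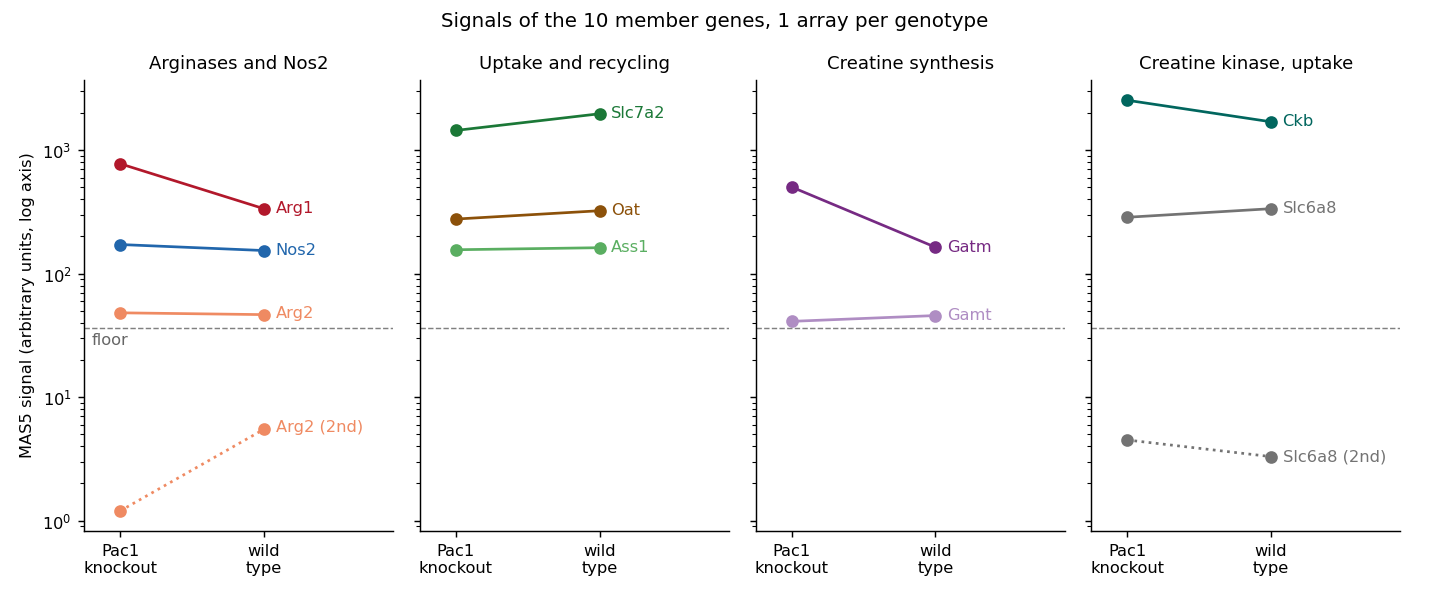
MAS5 signals (arbitrary units, log axis) of the 12 probe sets of the 10 genes, with the Pac1 knockout array left and the wild-type array right in each panel. Points are single arrays, dotted lines are second probe sets, and the dashed line is the floor of 36.4. The lines of Arg1, Gatm and Ckb are higher at the knockout, that of Slc7a2 is lower, and the second probe sets of Arg2 and Slc6a8 lie below the floor.

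Slc7a2 encodes a cationic amino acid transporter that carries arginine into activated macrophages. Its signal was 1445 in knockout cells and 1972 in wild-type cells. The knockout signal was 1.36-fold lower (log2 ratio -0.45), the lowest ratio of the 10 genes, and 26 of 446 genes of like brightness (5.83%) were at least as far apart. The uptake transporter and the arginase gene differed in opposite directions, with log2 ratios 1.66 apart.

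Ass1, the argininosuccinate synthase that recycles citrulline, had 156 in knockout cells and 162 in wild-type cells. Its log2 ratio was -0.06, and 85.8% of the genes of like brightness were as far apart. Oat, which passes ornithine towards proline and glutamate, had 277 in knockout cells and 323 in wild-type cells. That was 1.17-fold lower (log2 ratio -0.22), a difference matched or exceeded by 41.8% of the genes of like brightness. The log2 ratio of Oat, on the proline route of ornithine, was 1.43 below that of Arg1. On the polyamine route, Odc1 was at least 1.45-fold higher in knockout cells, with its wild-type signal under the floor.

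Gatm, the glycine amidinotransferase of the first step of creatine synthesis, had 503 in knockout cells and 164 in wild-type cells. The knockout signal was 3.07-fold higher (log2 ratio 1.62), the 6th highest ratio of the 5119 eligible genes. Among the 1455 genes of like brightness, 2 were as far apart, Dusp2 and Procr, and both were lower in the knockout.

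Gamt, the methyltransferase of the second step, had 41.1 in knockout cells and 45.8 in wild-type cells. Its log2 ratio was -0.16, and its signals stood at 1.13 times the floor in knockout and 1.26 times in wild-type cells, so little can be read from it. The log2 ratios of the enzymes of the first and the second step were 1.78 apart.

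Ckb, the brain-type creatine kinase of the cytosol, had 2536 in knockout cells and 1697 in wild-type cells. The knockout signal was 1.49-fold higher (log2 ratio 0.58). It did not reach 2-fold, but Ckb was bright, and 6 of the 371 genes of like brightness (1.62%) were at least as far apart. Over all 5119 eligible genes, of any brightness, it ranked 335th from the top.

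Slc6a8, the creatine transporter of the plasma membrane, had 286 in knockout cells and 336 in wild-type cells from its measured probe set, a log2 ratio of -0.23, and 40.2% of genes of like brightness were as far apart. The second probe set gave 4.50 in knockout and 3.30 in wild-type cells, below the floor on both arrays. The log2 ratio of Ckb exceeded that of the transporter by 0.81, and the log2 ratio of Gatm exceeded it by 1.85.

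**Figure D2:**
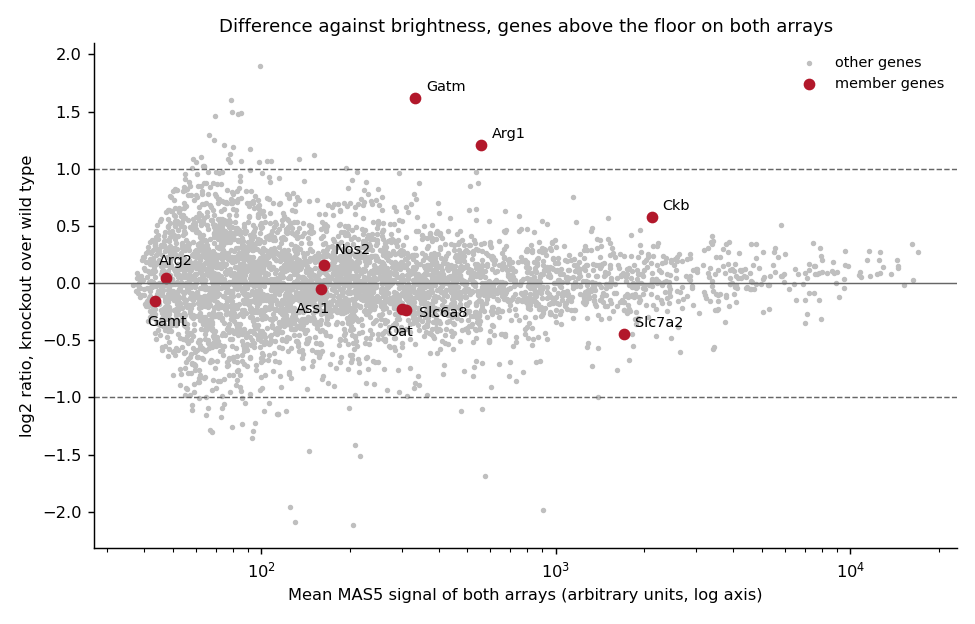
Log2 ratio of the knockout over the wild-type signal against the mean MAS5 signal of both arrays (log axis), with 1 point for each of the 4400 genes above the floor on both arrays and the 10 members in red. Dashed lines mark 2-fold. Gatm (1.62) and Arg1 (1.21) stand above the genes of their brightness, Ckb (0.58) lies at the upper edge and Slc7a2 (-0.45) towards the lower edge of the bright genes, and the other 6 lie within the bulk.

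Of the 10 genes, 2 were at least 2-fold higher in the knockout (Arg1 and Gatm) and 0 were 2-fold lower. Over all eligible genes 1.23% were 2-fold higher and 1.07% were 2-fold lower, and since both genes were picked for their ratios, nothing is read from the comparison. The member nearest to 2-fold from below was Ckb. Of the 2358 genes whose mean signal was at least 4 times the floor, 0.17% (4 genes) were 2-fold higher, and these were Gatm, Arg1, Adsl and Sfxn1. Adsl, an enzyme of purine synthesis, and Sfxn1, a mitochondrial serine carrier, were named after their values were seen. On the lower side the share was 0.339% (8 genes), with no gene of arginine or creatine handling among them. These were Dusp2, Il6, Procr, Chil3, Fmr1, Stag2, St8sia4 and Zranb2. Of them, Fmr1, Stag2, St8sia4 and Zranb2 were likewise named after their values were seen.

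Among the 10 genes, 5 had ratios above 0 and 5 below, and their median log2 ratio was -0.0033, against 0.02 over all eligible genes. For the 8 genes other than Arg1 and Gatm the median was -0.11, with a range from -0.45 (Slc7a2) to 0.58 (Ckb). Over all eligible genes 90% of the log2 ratios lay between -0.63 and 0.65, a range that held these 8 genes.

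Other genes of the same routes were counted in 9 lists, which hold 93 genes, 67 of them on the array and 53 eligible. Of all 5119 eligible genes on the array, 2672 had ratios above 0 and 2447 below, the split to set beside each count of signs. Leaving out the 10 members, 18 of the 43 eligible genes had ratios above 0 and 25 below, with a median of -0.03. With genes of 1 dim signal counted at their bound, 1 gene of this remainder was 2-fold higher (Aldh18a1) and 1 was 2-fold lower (Il6), again beside 1.23% and 1.07% of all eligible genes.

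In the list of arginine catabolism 3 of 5 genes on the array were eligible, all of them members. Nos1 and Nos3, the neuronal and endothelial nitric oxide synthases, were below the floor on both arrays. Of the amino acid transporters 7 were eligible, 2 above 0 and 5 below, with a median of -0.19. The lowest was Slc7a11, the cystine and glutamate exchanger, at 47.4 in knockout cells and 71.8 in wild-type cells (log2 ratio -0.60), followed by Slc7a2. The highest were Slc25a15, the carrier that takes ornithine into mitochondria, at 105 in knockout and 83.5 in wild-type cells (0.34), and Slc7a7, at 170 in knockout and 161 in wild-type cells (0.08). Slc3a2, the partner chain of several of these carriers, was nearly equal at 2881 in knockout and 2931 in wild-type cells (-0.03). Slc7a1, another arginine transporter, was below the floor on both arrays.

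The urea cycle was mostly dim. Of the 3 eligible genes only Ass1 was above the floor on both arrays. Asl, the argininosuccinate lyase, had 25.8, under the floor, in knockout cells and 41.5 in wild-type cells, at least 1.14-fold lower. Cps1 had 47.0 in knockout cells and was under the floor in wild-type cells, at least 1.29-fold higher. Otc was below the floor on both arrays.

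Polyamine genes, downstream of ornithine, had 3 of 6 eligible members above 0 and 3 below. The 4 with both signals above the floor were less than 2-fold apart, and the other two, Odc1 and Oaz1, have only bounds. Azin1, an inhibitor of antizyme, was lowest at 523 in knockout cells and 715 in wild-type cells (log2 ratio -0.45), followed by the spermidine synthase Srm at 70.5 in knockout and 87.6 in wild-type cells (-0.31). The highest with both signals measured were Sat1, a polyamine acetyltransferase, at 4058 in knockout and 3741 in wild-type cells (0.12), and the antizyme gene Oaz2 at 71.4 in knockout and 77.4 in wild-type cells (-0.12). Odc1, the ornithine decarboxylase, had 52.8 in knockout cells and 29.2, under the floor, in wild-type cells, so it was at least 1.45-fold higher, and the antizyme gene Oaz1 was at least 1.09-fold higher.

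Among 4 eligible genes of ornithine and proline, Aldh18a1, which makes the precursor of proline and ornithine from glutamate, had 76.5 in knockout cells and 19.9 in wild-type cells, at least 2.10-fold higher. The suffix of this probe set marks possible cross-hybridisation, and neither signal of the gene's other probe set reached the floor (26.9 in knockout cells and 16.9 in wild-type cells). The collagen prolyl hydroxylase genes went both ways, P4ha1 with 211 in knockout cells and 268 in wild-type cells (log2 ratio -0.34) and P4ha2 with 150 in knockout and 132 in wild-type cells (0.18). Oat was the other gene of this list.

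The creatine list held 4 of the 10 members and Ckmt2, a mitochondrial creatine kinase of muscle. Ckmt2 had 545 in knockout cells and 434 in wild-type cells (log2 ratio 0.33), but a second probe set, at 162 in knockout and 210 in wild-type cells, had -0.38 and the last was below the floor. The suffixes of both measured probe sets mark possible cross-hybridisation. The list's median of 0.33 was -0.02 when ratios were averaged over a gene's probe sets.

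Creatine synthesis by Gamt uses S-adenosylmethionine and leaves S-adenosylhomocysteine, which Ahcy cleaves. Ahcy was the higher of the 2 eligible genes of the methyl donor cycle, at 702 in knockout cells and 383 in wild-type cells, a log2 ratio of 0.87. Its 3 probe sets disagreed: the second had 119 in knockout and 103 in wild-type cells (0.20), and the last had 18.2, below the floor, in knockout cells and 59.4 in wild-type cells. Mat2b, a subunit of the enzyme that makes S-adenosylmethionine, had 406 in knockout and 434 in wild-type cells (-0.09).

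For nitric oxide, 7 genes of the cofactor and of control by methylarginine were eligible, 5 above 0 and 2 below. Gch1, the first enzyme of the synthesis of the Nos2 cofactor tetrahydrobiopterin, had 1088 in knockout cells and 998 in wild-type cells (log2 ratio 0.12). Ddah2, which degrades the methylarginines that inhibit nitric oxide synthases, was highest among those with both signals measured, at 108 in knockout and 79.5 in wild-type cells (0.44). The arginine methyltransferases Prmt5, at 65.3 in knockout and 81.8 in wild-type cells (-0.33), and Prmt1, at 183 in knockout and 216 in wild-type cells (-0.24), were lowest. Pts and Spr, the later enzymes of the cofactor, had wild-type signals below the floor and were at least 1.55-fold and 1.20-fold higher. The 5 genes with both signals above the floor were less than 2-fold apart, while for Pts and Spr only these bounds are known.

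Of 16 eligible genes known to bear on transcription of Arg1 or Nos2, 3 had ratios above 0 and 13 below, with a median of -0.12. Over all 5119 eligible genes 2672 were above 0 and 2447 below. Most of the 16 ratios were small, and the sign of a small ratio depends on the scaling, so nothing is read from the count. Of the factors known to act on Arg1 in mouse macrophages, Cebpb had 4971 in knockout cells and 4993 in wild-type cells (log2 ratio -0.01). Stat3 had 1338 in knockout and 1346 in wild-type cells (-0.01), and its other probe set had 923 in knockout and 1036 in wild-type cells (-0.17). Stat6 had 229 in knockout and 252 in wild-type cells (-0.14). Irf8, an interferon regulatory factor of the macrophage lineage, was highest at 818 in knockout and 528 in wild-type cells (0.63), followed by the dim Il6ra, the interleukin-6 receptor, at 47.0 in knockout and 36.6 in wild-type cells (0.36). Il6, the cytokine, was lowest at 366 in knockout and 1448 in wild-type cells (-1.98), 3.95-fold lower, and Junb was next at 882 in knockout and 1115 in wild-type cells (-0.34). Pparg and Cebpd were below the floor on both arrays.

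**Figure D3:**
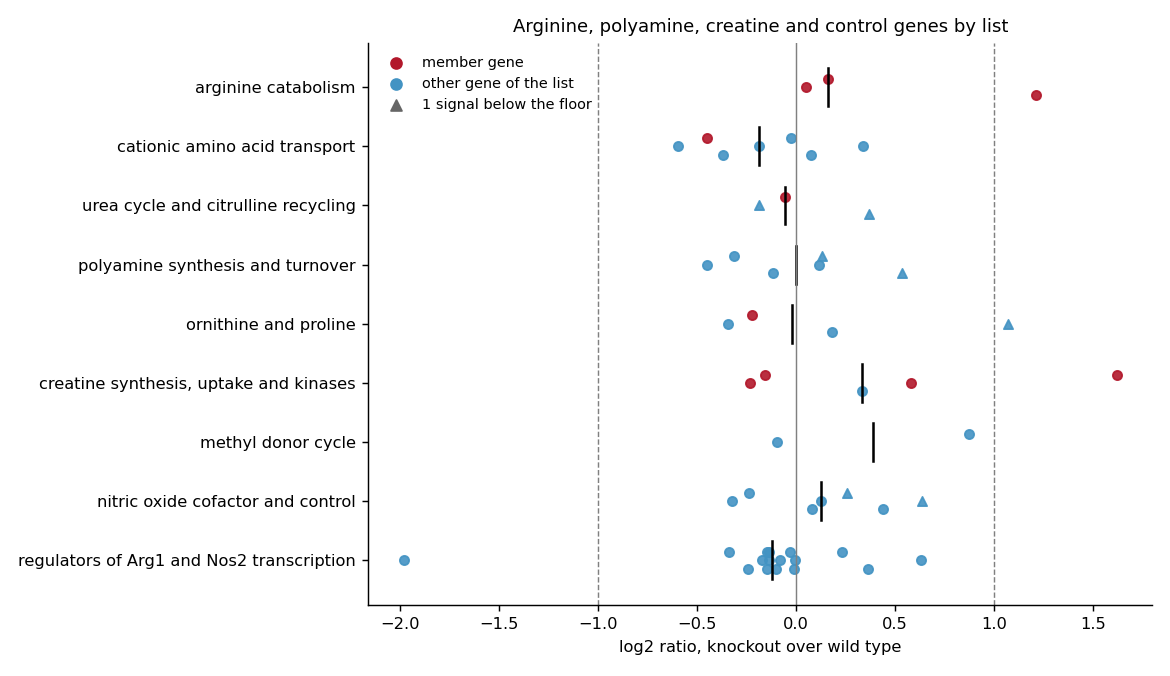
Log2 ratios of the knockout over the wild-type signal for the eligible genes of the 9 lists, with members in red, other genes in blue, the list's median as a vertical bar and triangles for genes with 1 signal below the floor, whose ratio is a bound. Dashed lines mark 2-fold. Beyond them lie Gatm, Arg1 and Aldh18a1 on the higher side and Il6 on the lower side.

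With 2 arrays, likeness to Arg1 and Gatm can be measured only as distance between log2 ratios. Among genes above the floor on both arrays and within 2-fold of its mean signal, those nearest to Arg1 were Pgd (712 in knockout cells and 362 in wild-type cells, log2 ratio 0.98), Miip (389 in knockout and 200 in wild-type cells, 0.96) and Ahcy. Those nearest to Gatm were Arg1 itself, Sfxn1 (260 in knockout and 129 in wild-type cells, 1.01) and Pgd. Pgd is an enzyme of the pentose phosphate pathway, and its second probe set had 71.9 in knockout and 74.4 in wild-type cells, a log2 ratio of -0.05. The other 2 probe sets of Miip had ratios below 0.

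The label of the cells was checked against marker genes. All 10 macrophage markers on the array were above the floor on both arrays, Lyz2 with 5769 in knockout cells and 5165 in wild-type cells, Cd68 with 4582 in knockout and 3821 in wild-type cells and Itgam with 356 in knockout and 301 in wild-type cells. Their log2 ratios ran from -0.67 (Msr1) to 0.36 (Fcgr1), with a median of 0.20. Of the 10, 8 were above 0, beside 2672 of all 5119 eligible genes. Their summed signal was 41603 in knockout cells and 38254 in wild-type cells. Per the labels, the preparations of both genotypes were about 92 to 95% positive for Mac-1, the integrin of which Itgam encodes a chain, and no separate value per sample is given. In bulk RNA a larger share of macrophages and more RNA per cell cannot be told apart, and the part of this difference in the ratios of the 10 genes was not tested.

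Genes listed as markers of other peritoneal cell types ranged from below the floor to bright, such as Cd83 at 2160 in knockout and 1715 in wild-type cells. In bulk RNA, signal from such cells cannot be told apart from signal of the macrophages themselves. A bright marker is therefore not read as the presence of its cell type. Of 10 neutrophil markers 5 were eligible, with a summed signal of 636 in knockout cells and 716 in wild-type cells. Their log2 ratios ran from -0.37 (Csf3r) to 0.47 (Camp). Csf3r was the brightest, at 315 in knockout and 408 in wild-type cells, while Ly6g, Mpo, Ltf, Ngp and Cxcr2 were below the floor. Of 4 eosinophil markers 1 was eligible, Prg2 (100.1 in the knockout, below the floor in the wild type, at least 2.75-fold higher), while Epx was below the floor. The 4 eligible of 9 mast cell and basophil markers summed to 997 in knockout cells and 1081 in wild-type cells, from Hdc (-0.45) to Tpsb2 (0.73). Hdc alone had 555.5 in knockout and 757 in wild-type cells, and 3 of the 4 had ratios above 0. Of 9 T and NK cell markers 1 was eligible, Cd4 (at least 2.05-fold lower), and Cd3d, Cd3e and Cd3g were below the floor. All 7 B cell markers were eligible, at a sum of 1903 in knockout and 1611 in wild-type cells. Most of this sum was Blnk, at 1377 in knockout and 1124 in wild-type cells. Of the 7, 3 had ratios above 0 and 4 below, with a median of -0.02. Cd79a was at least 2.75-fold higher, and Ms4a1 had 52.2 in knockout and 87.4 in wild-type cells (log2 ratio -0.74). Sums of signals are carried by the brightest probe sets, so they are no measure of cell content. Of 8 dendritic markers 6 were eligible, and Zbtb46 and Ccr7 were below the floor on both arrays. The 6 summed to 4093 in knockout and 3811 in wild-type cells, from Batf3 (-0.39) to Cd83 (0.33).

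Of 11 mesothelial and stromal markers 7 were eligible, 5 with ratios below 0, at a sum of 1321 in knockout cells and 1672 in wild-type cells. Acta2, smooth-muscle actin, was 2.55-fold lower, Dcn had the highest log2 ratio (0.37), and the mesothelial Msln and Krt19 were below the floor. Of 6 endothelial markers 2 were eligible, Vwf (-0.40) and Eng (0.01), which summed to 2285 in knockout and 2328 in wild-type cells. Pecam1, Cdh5, Tek and Kdr were below the floor on both arrays. Eng alone had 2121 in knockout and 2111 in wild-type cells. The part of these cells in the member ratios was not tested.

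**Figure D4:**
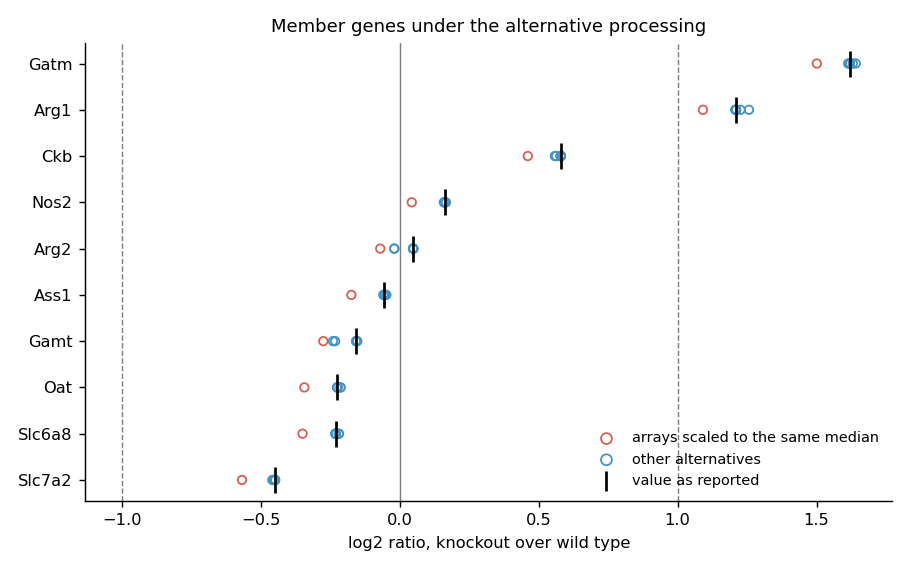
Log2 ratios of the 10 genes in the reported processing (bars) and under the 9 alternative settings (circles; arrays scaled to the same median in red). Gatm and Arg1 stay past 2-fold, marked by the dashed lines, in every setting drawn, and Arg2, near 0, lies on either side of it.

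In the 9 alternative settings the log2 ratios ran from 1.09 to 1.26 for Arg1 and from 1.50 to 1.64 for Gatm. They stayed past 2-fold, but only same-median scaling, quantile normalization, loess and the added unit could move them. Each gene has 1 probe set, without a suffix of possible cross-hybridisation and above every floor, and the deposited arrays needed almost no scaling. Ckb ran from 0.46 to 0.58 and Slc7a2 from -0.57 to -0.45. Scaling the arrays to the same median moved the median of all eligible genes by -0.11 on the log2 scale and the members with it. Such scaling multiplies each array by 1 factor, so every member had to move by the same amount. That amount differed from the shift of the overall median by 0.006, which says nothing about the stability of the members.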

How the data were processed

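RNA of 2 samples was measured on 1 Affymetrix mouse array each. Each probe set has 1 deposited intensity per array on a linear scale, which the authors computed with MAS5, per the submitters' processing notes, which give no version. Probe sets were named through the platform's annotation table: 10298 of 12654 had 1 symbol, and 10279 of these were found in a RefSeq gene table. Early arrays of this design held some probe sets against the wrong strand, which were not identified here.

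Arrays were scaled to the same 2% trimmed mean, signals under a floor of 36.4, their overall median, were set to it, and log2 ratios (knockout over wild type) were taken from the brightest probe set of a gene. A gene with 1 signal below the floor gives a bound, written as "at least". Genes of like brightness are those above the floor on both arrays with a mean signal within 2-fold. No test was run, since each genotype had 1 array, and the number of arrays limits the precision.

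Named are the members, and of each list the genes 2-fold apart with the 2 highest and 2 lowest ratios, beside a few of known role. The members and lists were chosen with earlier results of these data known. The ratio calculation was tested on simulated data. Python 3.11.15, pandas 2.3.3, scipy 1.17.1 and statsmodels 0.14.6 were used.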

Additional observations from a re-analysis of the deposited data

How the results depend on the processing

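The 9 alternatives were scaling to the same median, no scaling, quantile normalization, loess, floors at the 25th and 75th percentiles, no floor with 1 unit added, averaging all probe sets of a gene, and omission of probe sets that may cross-hybridise. The count of members 2-fold higher was 2 and of those lower 0 in each of them, and no ratio past 2-fold changed sign. The other floors, averaging and omission could not alter the ratios of Arg1 and Gatm, so they are no check on these genes. The median of the members ran from -0.12 to 0.05. Arg2 was below 0 with the same median (-0.07), quantile normalization (-0.02) and loess (-0.02), and Arg2 and Gamt had no value with the floor at the 75th percentile (129.9). Of the 53 eligible genes in the pathway lists 4 were 2-fold apart as reported. There were 10 with the floor at the 25th percentile and 7 with no floor, settings that admit dimmer signals. The counts over all eligible genes, given below, rose in the same settings, so nothing about the lists is read from this. The median of the polyamine list, near 0, was negative in 4 of the 9 settings. Over all eligible genes the split was 63 higher and 55 lower of 5119 genes. It became 43 and 86 of 5117 with the same median and 476 and 344 of 7128 with the low floor. With the high floor it was 2 and 8 of 2675, and with no floor 232 and 156 of 5119. No paired analysis was possible because each genotype had 1 array. Arg2, Gamt and, of the urea cycle list, Asl and Cps1 were near the floor, which limits what their ratios can show.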
